A study of Rattus norvegicus with 12 samples.

Results

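Of 24605 m6A regions of the rat retina, 6941 (28.2%) were held by the peak list of a single sample and by none of the other 5, and these one-list regions are described here. They were found by pooling the peaks of all 6 lists, merging peaks that shared at least 1 base into regions, and keeping the regions with peaks from exactly 1 list. The members were thus chosen by the presence or absence of a called peak, so their counts, scores, enrichments and false discovery rates describe the choice and were not tested against other regions. Each of the 6941 regions was a single peak in a single gene, and together they lay in 4641 of the 9324 genes (49.8%) with any region.

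The TON samples (replicates 4, 5 and 6) came from retinas of male Sprague-Dawley rats aged 7 to 8 weeks, 12 h after the optic nerve was clamped, a model of traumatic optic neuropathy (TON). The sham samples (replicates 1, 2 and 3) came from rats of the same strain, sex and age at 12 h after surgery without the clamp. Each sample pooled the retinas of 4 rats and gave an m6A-immunoprecipitated library, set against its own input library. A region of 1 list was thus called in 1 pool of animals and 1 pair of libraries only. A missing call does not show that the mark was missing from the other pools. The replicates were separate pools, and whole retina was used, so that fewer cells of a type and less RNA per cell cannot be told apart.

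N6-methyladenosine (m6A) is laid down on messenger RNA by a writer complex around METTL3 and METTL14, can be removed by the erasers FTO and ALKBH5, and is bound by reader proteins that act on splicing, export, translation and decay. In mammalian mRNA it is typically dense near stop codons and in 3′ untranslated regions and in long internal exons. In methylated RNA immunoprecipitation sequencing (MeRIP-seq), RNA fragments are pulled down with an antibody to m6A, and a peak is called where the pulled-down reads exceed those of the input.

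The lists did not all look alike. Peaks of TON 4 and TON 6 were longer: the median length of their shared peaks was 284 and 306 bases, against 207 bases in TON 5, 207 in sham 1, 203 in sham 2 and 190 in sham 3. The inputs of TON 4, 5 and 6 were estimated at 3163350, 4760010 and 3731697 fragments. Those of sham 1, 2 and 3 were estimated at 4195825, 4735963 and 4060709 fragments. TON 4 and TON 6 thus had the smallest inputs, and whether this bears on their longer peaks was not tested. The depth of the immunoprecipitated libraries is unknown. Rod markers, which should dominate whole retina, summed to 22389 to 22800 FPKM (fragments scaled to transcript length and library size) over 6 genes in the TON inputs and to 21192 to 21880 FPKM in the sham inputs. Markers of neighbouring tissue were also present: 3 ocular surface keratins summed to 1.32 to 16.4 FPKM in TON inputs, and to 151 FPKM in sham 1 against 20.7 and 9.86 FPKM in the other sham inputs. Lens crystallins with Mip summed to 270 to 538 FPKM in TON and to 601 to 1161 FPKM in sham, and 3 muscle genes to 36.8 FPKM in TON 5, 3.37 to 10.7 FPKM in the other TON inputs and 2.16 to 2.77 FPKM in sham.

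The number of one-list regions differed between samples of the same group. TON 4 had 1343 of them, TON 5 had 890 and TON 6 had 770, against 1768 in sham 1, 710 in sham 2 and 1460 in sham 3. As a share of the regions of a list they were 9.46%, 6.80% and 6.21% in TON 4, 5 and 6, and 12.8%, 5.54% and 10.9% in sham 1, 2 and 3. The mean number was 1001 ± 302 in TON and 1313 ± 544 in sham, and the mean share was 7.49% ± 1.73 in TON and 9.73% ± 3.75 in sham (SD, n = 3 each), and in both measures the lists of the groups overlapped. These values come from the rule itself, and a region shared by a pair of lists leaves the count of both, so they are given without a test. Without TON 6 the difference in number turned to 289 more in TON and that in share to 1.82 percentage points higher in TON, and without TON 4 the share was 0.42 points higher in TON. Without TON 4 and TON 6 there were 7042 regions held by exactly 1 of the remaining 4 lists.

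**Figure D1:**
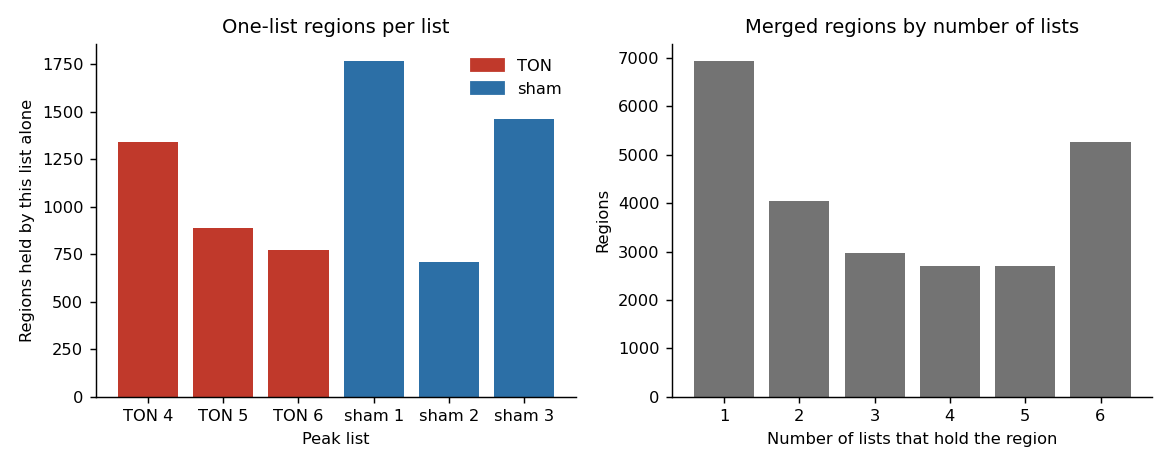
The left panel gives the number of regions held by each list alone, TON lists at the left and sham lists at the right, and the right panel all merged regions by the number of lists that hold them. One-list regions were the most frequent class (6941), followed by regions of all 6 lists (5261), and the TON lists (770 to 1343) overlapped the sham lists (710 to 1768).

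The distribution over lists was U-shaped: 6941 regions were in 1 list, 4044 in 2, 2970 in 3, 2696 in 4, 2693 in 5 and 5261 in all 6. The scores of the peaks (minus 10 times log10 of the peak caller's p-value) climbed along that order, with medians of 79.8, 99.9, 122, 155, 225 and 596. The median fold enrichment over input went from 5.33 in one-list regions through 5.91, 6.29, 6.79 and 7.52 to 10.4 in regions of all 6 lists. One-list regions were also the shortest, with a median of 163 bases against 297 bases for all 6 lists, where shared regions were measured after merging. A longer peak is more likely to share a base with another list, so this difference depends in part on the rule. Their median false discovery rate was 54.2%, against 22.65% for peaks in regions of all 6 lists, and 35 of the 6941 (0.504%) had one under 10%. By list the median rate of the members was 50.8%, 51.3% and 73.0% in TON 4, 5 and 6. In sham 1, 2 and 3 it was 42.4%, 70.9% and 100%. The rate at a given score differed between lists. At a score of 3100, in a region of Ap3d1 held by all 6 lists, it was 3.46% in sham 1 and 13.69% in TON 6. A limit of 10% thus does not mean the same in each list.

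**Figure D2:**
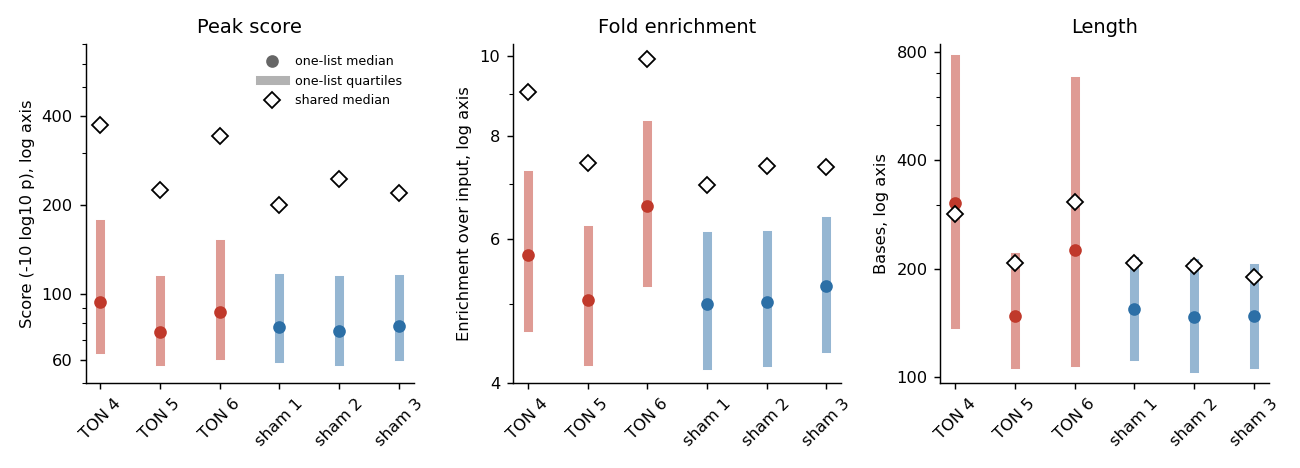
Points give the median score, fold enrichment over input and length of the one-list regions of each list, bars their quartiles, and open diamonds the median of the same list's shared peaks; all 3 vertical axes are logarithmic. In every list the median score and enrichment of one-list regions lay below those of shared peaks, while the one-list regions of TON 4 reached a median length of 304 bases against 284 bases for its shared peaks.

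Within its own list a member was usually a weak peak. The lowest score among all members was 50.0, so members named below with scores just above 50 were among the weakest. The median score was 94.3, 74.5 and 86.8 in TON 4, 5 and 6 and 77.6, 75.2 and 78.1 in sham 1, 2 and 3, against 374, 225 and 341 and 200.5, 245 and 220 for the shared peaks of the same lists in the same order. Only 713 members (10.3%) ranked in the upper 50% of their list by score, and 56 (0.807%) ranked in the top 10%. Of those 56, TON 4 held 16, TON 5 4 and TON 6 13, and sham 1 held 13, sham 2 1 and sham 3 9. A score of at least 1000 was reached by 34, 5 and 21 members in TON 4, 5 and 6 and by 14, 5 and 12 in sham 1, 2 and 3. Lengths separated TON 4 and TON 6 from the rest more than scores did. The share of members of at least 1000 bases was 17.7% in TON 4, 2.81% in TON 5 and 12.6% in TON 6, against 1.92%, 2.54% and 0.959% in sham 1, 2 and 3.

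The peak bounds bear on what a one-list region is. Of the peaks that lay in shared regions, 90.2% had a start and an end identical to the base with a peak of another list. Of the 4044 regions of 2 lists, 3546 (87.7%) had identical bounds in both. Since peaks called separately share their bounds to the base, the deposited bounds may be those of annotated features such as exons and not the peak caller's own, which was not tested, and all lengths, edges, overlaps and gaps given here are of the deposited bounds. The overlap rule was therefore seldom decided by a few bases: 42 members (0.605%) lay within 200 bases of a region held by another list, and 733 (10.6%) within 1000 bases, with a median gap of 6601 bases. The members closest to the limit were regions of the unnamed genes AABR06008855.1 (sham 3, gap of 2 bases, score 501; and TON 4, gap of 4 bases, score 139) and AABR06054867.1 (TON 4, gap of 2 bases, score 199). Just on the other side lay regions of Mif4gd with a shared stretch of 2 bases (TON 5 score 104, sham 2 score 85.3), of Pou3f3 with 7 bases (TON 6 score 295, sham 3 score 58.6) and of AABR06045579.1 with 10 bases (TON 4 score 214, TON 6 score 235).

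The regions of exactly 2 lists, the class next to the members, were counted for each pair of lists. TON 4 and TON 6 shared 1000 of these with each other alone, the largest number among the 15 pairs. TON 5 shared 213 with TON 4 and 143 with TON 6, and 261, 174 and 273 with sham 1, 2 and 3. TON 6 shared 79, 88 and 91 with the sham lists, and TON 4 shared 170, 150 and 160 with them. Within sham, sham 1 and sham 3 shared 605, sham 2 and sham 3 322, and sham 1 and sham 2 315. In this class TON 5 shared more regions with sham 1 and with sham 3 than with either TON list. A region that TON 5 shares with both TON 4 and TON 6 is not in this class. These counts thus do not measure how alike 2 lists are.

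**Figure D3:**
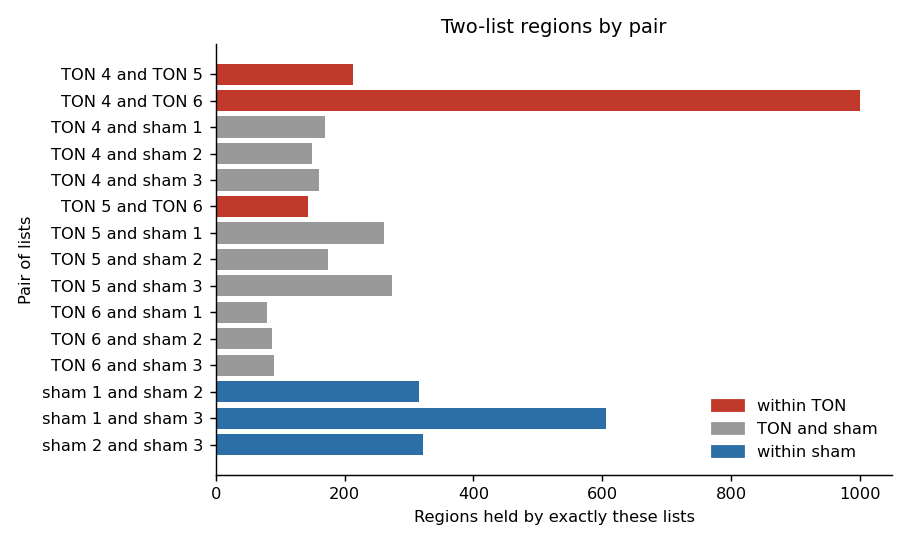
Bars give the number of regions held by exactly the 2 lists named, for the 15 pairs of lists, coloured by whether both are TON, both are sham or 1 of each. The pair of TON 4 and TON 6 stands at 1000, the pair of sham 1 and sham 3 at 605, and the other 13 pairs between 79 and 322.

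The position of members along their genes set the same pair of lists apart. Of the 6941 members, 6365 (91.7%) lay inside the extent that the expression table gives for their gene, and position was taken as the midpoint along that extent, introns included. In TON 4, TON 5 and TON 6, 521 of 1170 (44.5%), 212 of 820 (25.9%) and 316 of 686 (46.1%) members fell in the last 20% of the gene. In sham 1, 2 and 3 these were 364 of 1658 (22.0%), 165 of 656 (25.2%) and 316 of 1375 (23.0%). TON 5 thus lay beside the sham lists and far below the other TON lists, although no sham list exceeded it. The group means were 38.8% ± 11.3 in TON and 23.4% ± 1.63 in sham (SD, n = 3 each), a difference of 15.5 percentage points (two-sided exact permutation test, p = 0.1, which is the smallest possible, adjusted p = 0.50). The adjustment covered 5 of the comparisons of TON with sham computed on the members, including some that are given without a test. Others, such as the share in the first 20% of the gene (exact permutation p = 0.1), were left out of it. A member is by rule absent from the other 5 lists, so the values of the lists depend on each other. The permutation tests on members do not take this into account.

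Regions shared with at least 1 other list gave the within-list reference. Their share in the last 20% of the gene was 35.6%, 30.8% and 36.8% in TON 4, 5 and 6 and 29.1%, 29.8% and 27.8% in sham 1, 2 and 3. Members were thus placed more often in the last 20% than shared regions in TON 4 and TON 6, and less often in TON 5 and the 3 sham lists. The mean difference over the 6 lists was -0.58 percentage points (range -7.15 to 9.25; two-sided exact sign-flip permutation test over lists, p = 0.81). With at least 100 shared bases required, it was -10.8 percentage points (exact p = 0.03125, the smallest possible), a setting under which 12.7% of all peaks are too short to be shared. With TON 4 and TON 6 left out, and sharing counted among the other 4 lists, the mean difference was 1.28 percentage points (exact p = 0.5).

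**Figure D4:**
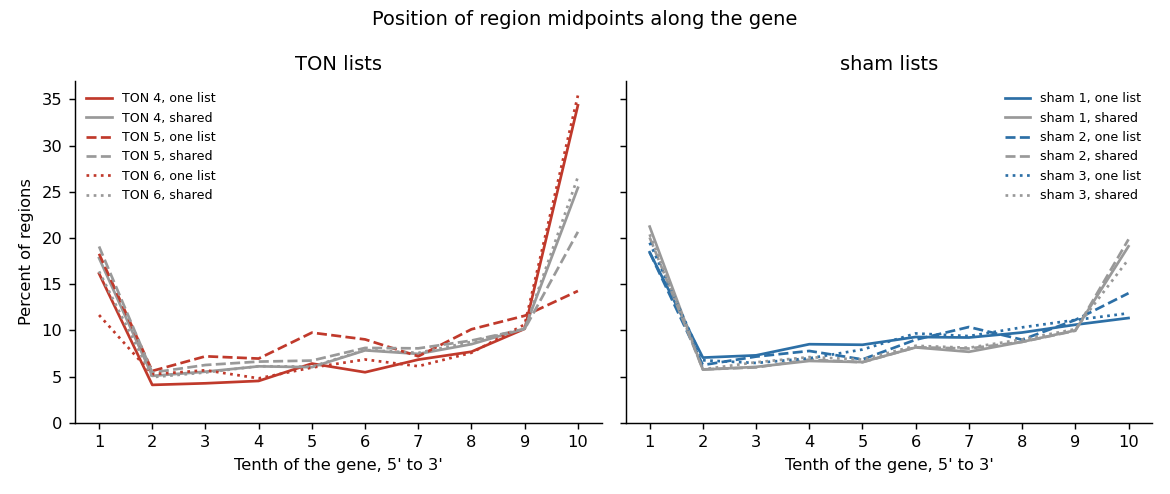
Lines give the percent of a list's regions whose midpoint falls in each 10% of the gene from the 5′ to the 3′ end, in colour for one-list regions and in grey for shared regions, TON lists at the left and sham lists at the right. In the last 10% the one-list regions of TON 4 and TON 6 reached 34.4% and 35.4%, against 14.3% in TON 5 and 11.3%, 14.02% and 11.9% in sham 1, 2 and 3.

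Regions that ended at the 3′ edge of the gene, within 1 base, showed the division most sharply. Of the 476 members of this kind, 337 belonged to TON 4 and TON 6. The share of members at the 3′ edge was 18.9%, 3.66% and 16.9% in TON 4, 5 and 6 and 1.99%, 5.34% and 2.98% in sham 1, 2 and 3. The shared regions of the same lists stood at 17.4%, 13.3% and 18.1% in TON and at 12.5%, 13.1% and 10.9% in sham. One-list regions of TON 5 and of the sham lists therefore reached the 3′ edge less often than shared ones did, by up to 10.5 percentage points in sham 1. The group means were 13.2% ± 8.28 in TON and 3.44% ± 1.72 in sham (SD, n = 3 each, exact permutation p = 0.2, adjusted p = 0.50), and leaving out any single list kept the difference between 8.57 and 13.8 percentage points. At the 3′ edge, members of TON 4 and TON 6 had a median length of 522 and 495 bases, against 203 and 166.5 bases for their other members. Whether the longer peaks and the 3′ ends of these lists have a common source was not tested. At the 5′ edge the members of all 6 lists stood 1.89 to 4.76 percentage points below the shared regions.

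The members were not confined to scarcely expressed genes. Input FPKM was matched for 6881 of them, and the median gene level was 20.7 FPKM, against 21.9 FPKM for regions of all 6 lists. By list it was 18.0, 20.4 and 13.2 FPKM in TON 4, 5 and 6 and 22.9, 21.3 and 23.9 FPKM in sham 1, 2 and 3. The share of regions that were one-list was 34.9% in genes under 1 FPKM (296 of 849), 30.8% at 1 to 5 FPKM, 27.5% at 5 to 20, 27.7% at 20 to 100 and 30.3% above 100 FPKM (339 of 1117). TON 6 had the largest portion of its members in genes under 1 FPKM, 8.95%, followed by TON 4 with 6.07% and TON 5 with 3.30%, against 2.80%, 3.40% and 3.10% in sham 1, 2 and 3. In all 6 lists this portion was larger than that of the shared regions, by 0.20 to 5.59 percentage points. The shared regions stood at 3.36% in TON 6 and 3.45% in TON 4, and the median level of those in TON 6 was 19.5 FPKM. For 85 members (1.24%) the gene was listed at 0 in all 6 inputs, beside 0.40% of the regions of all 6 lists. Such a 0 can be a failed estimate and does not show that the RNA was absent.

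Most members sat in transcripts that other lists marked elsewhere. A region shared by at least 2 lists was present in the gene of 5003 members (72.1%), and a region of all 6 lists in the gene of 2391 (34.4%). Among the 9324 genes with any region, 3288 with an expression level had a region of all 6 lists, and 1539 had no shared region. The shares of members are thus not read as particular to them. By list the share with a region of all 6 lists was 27.2%, 41.7% and 27.5% in TON 4, 5 and 6 and 35.1%, 33.1% and 40.3% in sham 1, 2 and 3, with means of 32.1% ± 8.28 in TON and 36.1% ± 3.71 in sham (SD, n = 3 each). These shares rest on the presence of peaks in the lists, which the rule used, and are given without a test. The remaining 1938 members lay in 1539 genes without any shared region, and the median level of those genes was 14.4 FPKM, against 23.0 FPKM for members in genes that also had a shared region. Of the 4641 genes, 3178 held 1 member, 982 held 2 and 205 held 4 or more. Members came from TON lists alone in 1780 genes, from sham lists alone in 2143 and from both in 718.

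Some long transcripts collected members of several lists at different places. Macf1, a giant spectraplakin that links actin and microtubules, had the most, with 11 members among 29 regions, and 6 of the 11 belonged to sham 1. Members of 5 lists met in 4 genes, among them Birc6 (an inhibitor of apoptosis), Rpgrip1l (a protein of the ciliary transition zone) and Vps8 (a subunit of an endosomal tethering complex), which were picked for that pattern. In Rpgrip1l 7 of 13 regions were members, with scores of 58.0 in TON 4 and 63.3 in TON 5, and of 109 in sham 1, 56.2 to 93.5 over 3 regions of sham 2 and 111 in sham 3. The same gene had 1 region in all 6 lists, with scores of 165, 115 and 127 in TON 4, 5 and 6 and 131, 207 and 93.1 in sham 1, 2 and 3. Its one-list peaks were thus weaker than most, though not all, of the peaks at its most widely shared region. In Vps8 all but 2 of 8 regions were members, and the strongest was a 35-base region of TON 5 at chr11:86280803-86280837 with a score of 566 and a 16.1-fold enrichment.

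A few genes drew many members from 1 list. Col4a1, a chain of basement membrane collagen, held 8 one-list regions of TON 5 among 15 regions and none in all 6 lists. They were 54 to 192 bases long, had scores of 53.1 to 337, and lay between 58.2% and 97.2% of the way along the gene. Its input level was 89.1, 58.4 and 95.4 FPKM in TON 4, 5 and 6 and 191, 96.5 and 60.6 FPKM in sham 1, 2 and 3, so that the list with the members had the lowest level. Fbn1 (fibrillin-1, of elastic fibres) and Utrn (utrophin) each held 6 members of sham 1, as Macf1 did. The 6 of Fbn1 were 120 to 132 bases long with scores of 58.9 to 99.9. Gpr98, an adhesion receptor of photoreceptor cilia, held 4 members of TON 4 among 14 regions, with scores of 55.0 to 619. In sham 2 the largest number was 3, in Cttn, Pak2 and Rpgrip1l.

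Several of these clusters lay in genes with copies that cannot be told apart here. Cttn (cortactin), with 5 members in sham 3 and 3 in sham 2, had 2 places on chromosome 1, 1 of which was listed at 0 FPKM in all inputs, and members of 56 bases, of 55 bases and of 111 bases recurred at both. Ncan (neurocan, a proteoglycan of the extracellular matrix) held 4 members of TON 6, of 597 and 1090 bases at chr16:20910816-20911412 and chr16:20912773-20913862, and again of 597 and 1090 bases at chr16:20973465-20974061 and chr16:20975422-20976511. Rpl8, a protein of the large ribosomal subunit, showed the same: 219 bases in sham 1 at both places, and 195 bases in TON 6 at one and in sham 3 at the other. In all, 244 members (3.52%) of at least 50 bases had another region of equal length in the same gene, against 3.74% of the regions of all 6 lists. How reads were divided between such copies is not stated, so these members are uncertain.

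The highest scores among the members of each list reached 2756 to 3224. In TON 4 the 3 highest, all at a score of 3100 and ordered by enrichment, lay in Zfp36l2 (an mRNA decay factor; 83.2-fold, 3256 bases), Cnga1 (52.4-fold, 108 bases) and Bcl9l (a coactivator of beta-catenin; 43.6-fold, 1311 bases). Zfp36l2 also had a member of TON 4 of 3260 bases on chromosome 6, besides that of 3256 bases on chromosome 7, and both are uncertain. Zfp36l2 is paired in the expression table with the symbol LOC100911319. The member on chromosome 7 did not lie fully inside the extent given for that symbol. The level of LOC100911319 was 81.5, 2.91 and 4.09 FPKM in TON 4, 5 and 6 and 2.12, 21.8 and 2.19 FPKM in sham 1, 2 and 3. In TON 5 the 3 highest lay in Dgat2l6 (3100, 15 bases, the gene listed at 0 FPKM), Ap3d1 (an adaptor protein subunit, 3100, 166 bases) and the splicing factor Srrm2 (2610, 78 bases). In TON 6 they lay in Npm1 (nucleophosmin; 3224, 84 bases, at chr10:17969805-17969888), Ehbp1l1 (3100, 100 bases, in a gene of 1.60 FPKM) and Cnga1 (3100, 1512 bases). The false discovery rate of the Npm1 peak was 0.00%, the lowest among the members, while the other named peaks stood at 7.43% in TON 4, 8.52% to 9.53% in TON 5 and 13.7% in TON 6.

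In the sham lists the highest members were in Ncl (nucleolin; 3100, 224 bases), Zfc3h1 (a factor of nuclear RNA decay; 3100) and Macf1 (2347, 227 bases) for sham 1. Those of sham 2 were in Plxnd1 (a semaphorin receptor; 3100, 21 bases), Gspt1 (a translation termination factor; 1411, 543 bases) and Nap1l1 (a histone chaperone; 1098, 801 bases). Those of sham 3 were in Apoe (apolipoprotein E; 2756, 837 bases, 6.04-fold), Akap17a (2509, 877 bases) and Canx (calnexin, a chaperone of the endoplasmic reticulum; 2479, 120 bases). Apoe was among the most expressed genes with a member, at 689, 631 and 649 FPKM in TON 4, 5 and 6 and 709, 528 and 621 FPKM in sham 1, 2 and 3. The false discovery rates of the 9 sham peaks named here were 3.46% to 4.46% in sham 1, 8.54% to 15.5% in sham 2 and 11.9% to 12.8% in sham 3. Apoe had no other region in any list, and so a called peak in 1 of the 6 lists only.

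Genes of the photoreceptor gave the most abundant members. In the list for rod and cone phototransduction, 12 of 30 genes had a region and 7 of these a member, and 12 of their 28 regions (42.9%) were one-list, beside 28.2% of all regions. Of the 12, 7 were in TON and 5 in sham lists. Pdc (phosducin, which binds transducin subunits) had its only region in TON 6, 917 bases at the 3′ edge of the gene at chr13:72522444-72523360, with a score of 212 and a 44.1-fold enrichment. Its level was 2839, 2430 and 2214.5 FPKM in TON 4, 5 and 6 and 2470, 2681 and 3272 FPKM in sham 1, 2 and 3, lowest in the library that carried the region. Rcvrn (recoverin, a calcium sensor of photoreceptors) also had its only region in TON 6, with a score of 3100 over 369 bases, and 1632, 1174 and 1305 FPKM in TON 4, 5 and 6 and 1506, 1483 and 1597 FPKM in sham 1, 2 and 3. That region did not lie fully inside the extent that the expression table gives for Rcvrn. Cnga1, the alpha subunit of the cyclic nucleotide-gated channel of rods, had 3 regions, all of them members and all at a score of 3100: 107 and 1512 bases in TON 6 and 108 bases in TON 4.

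Of the genes of photoreceptor identity and outer segments, 6 held 10 members among 23 regions (43.5%), 3 in TON and 7 in sham lists. Abca4, the retinoid flippase of outer segments, had its only region in TON 4 (score 64.4, 150 bases) at 201 FPKM. Impg1, a proteoglycan of the interphotoreceptor matrix, had a member in each sham list and none in a TON list, with scores of 147, 82.2 and 139. Elovl4, which elongates very long fatty acids in photoreceptors, had its only region in TON 4, 744 bases at the 3′ edge, with a score of 83.7.

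In the list for glutamate, GABA and glycine receptors, 20 of 32 genes with a region held 29 members among 89 regions (32.6%), 14 in TON and 15 in sham lists. Among the most expressed was Grik1, a kainate receptor subunit, with members in TON 5 (99.3 and 52.7) and sham 3 (53.5). Of the synaptic vesicle genes, 15 of 22 held 24 members among 97 regions (24.7%), 9 in TON and 15 in sham lists. Syt1, the calcium sensor of fast release, had members in TON 6 (894 and 195) and sham 1 (67.8), while Snap25, a SNARE protein, had 1 in sham 3 (258) and Nsf 1 in sham 1 (58.1). Of the retinal ganglion cell genes, the neurons whose axons form the optic nerve, 6 of 16 held 6 members among 33 regions (18.2%), 2 in TON and 4 in sham lists. These were led by Sncg (TON 5, 104), Tubb3 (sham 2, 50.3) and Ebf1 (TON 5, 66.6).

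Of the axon guidance genes, 13 of 27 held 22 members among 95 regions (23.2%), 12 in TON and 10 in sham lists, and 9 of the 12 were in TON 4. The plexins Plxnb1 (TON 6, 240 and 71.1) and Plxna2 (TON 4, 127, and sham 3, 90.5) and the ligand Slit2 (sham 1, 56.8, and sham 3, 59.5) were the most expressed. Of the axon injury signalling genes, 7 of 24 held 12 members among 88 regions (13.6%), 5 in TON and 7 in sham lists. They included Rock2, a kinase that acts on the actin cytoskeleton (TON 5, 66.4, and TON 6, 92.1), and Mapk8ip1, a JNK scaffold (sham 1, 51.6 and 64.1). Mapk9 (JNK2) had 3 regions and all were members, in TON 6 (171), sham 1 (51.4) and sham 3 (141).

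Immediate early genes, which respond fast to injury and activity, were the most uneven by list. In the list for injury transcription factors and immediate early genes, 6 of 20 genes with a region held 12 members among 35 regions (34.3%), and all 12 were in TON lists, 11 of them in TON 5 and 1 in TON 4. Fosb, Fosl1, Fosl2 and Nr4a1 are named here because of this count, after their values were seen. Fosb had no other region: its 3 members covered 450, 321 and 2229 bases in TON 5 with scores of 327, 386 and 644, the last at chr1:81481317-81483545 with a 15.8-fold enrichment. Fosl2 likewise had 3 regions, all in TON 5 alone (59.9, 102 and 84.0), and Nr4a1 had 2 (89.1 and 62.8). The 2 of Nr4a1 did not lie fully inside the extent that the expression table gives for the gene. Fosl1 had 2 in TON 5 (358 and 117) and another region in TON 5 (3085) and TON 6 (3100).

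The input RNA of these genes did not follow the list. Fosb stood at 0.38, 2.19 and 22.4 FPKM in TON 4, 5 and 6 and at 0.91, 1.20 and 0.87 FPKM in sham 1, 2 and 3. Fosl1 stood at 2.43, 2.17 and 24.4 FPKM in TON 4, 5 and 6 and at 0.30, 0.00 and 0.00 FPKM in sham 1, 2 and 3, and Nr4a1 at 10.3, 15.2 and 39.8 FPKM and at 10.8, 7.36 and 14.3 FPKM in the same order. TON 6 was thus the highest library for all 3, yet it held no one-list region in any of them. None of the 3 passed the test for expression, which called 0.0377% of all genes higher in TON (limma on log2(FPKM + 1) across 15900 genes, log2 change 1.23 ± 0.90 SE and adjusted p = 0.68 for Fosb, 2.58 ± 0.74 and 0.38 for Fosl1, 0.77 ± 0.45 and 0.61 for Nr4a1), although with the authors' scaled fragments in place of FPKM, an alternative chosen after seeing the data, Fosl1 passed it (adjusted p = 0.047). Fos, the founding member of the family, had 1 member in TON 4 (51.6) beside a region in TON 4 (1186) and TON 5 (3100), and in sham 2 (129) and sham 3 (207).

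**Figure D5:**
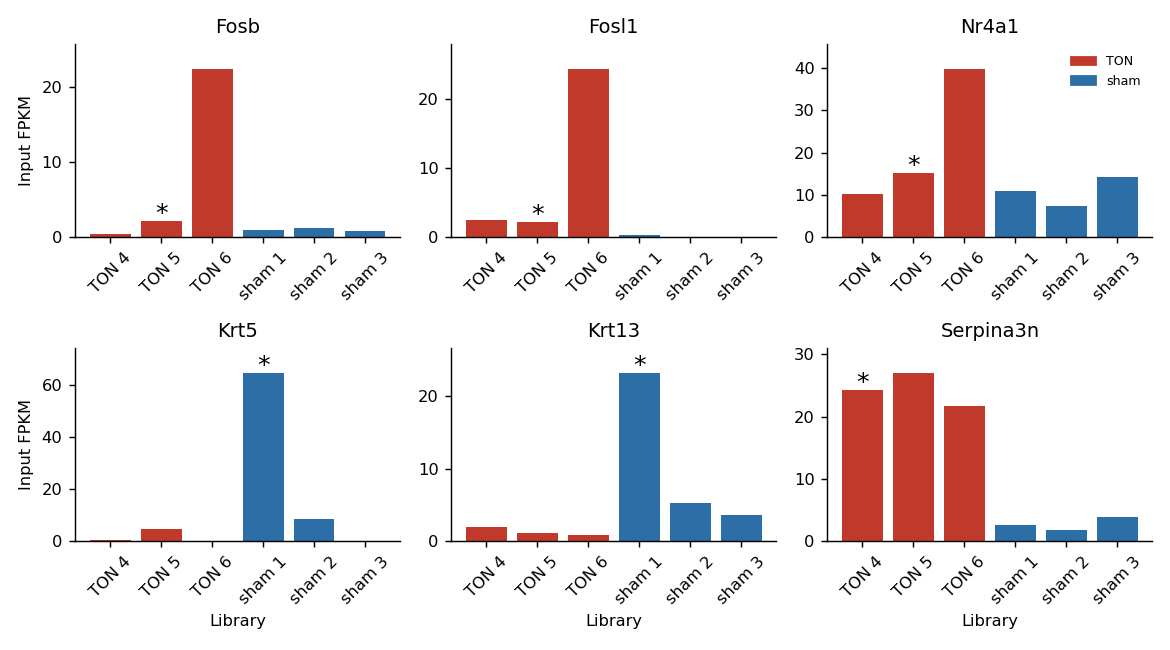
Bars give the FPKM of the input library of each sample, TON at the left and sham at the right, for 6 genes with one-list regions, and the asterisk marks the library whose list alone holds the region. Fosb, Fosl1 and Nr4a1 were highest in TON 6 while their members were in TON 5, Krt5 and Krt13 were highest in the library of their member, and Serpina3n was high in all 3 TON inputs.

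Among glial and housekeeping groups more members were in sham lists, as over all members (3003 in TON and 3938 in sham lists). Of the cytosolic ribosomal protein genes, 14 of 25 held 20 members among 49 regions (40.8%), 4 in TON and 16 in sham lists, 10 of the 16 in sham 1. The most expressed were Rpl19 (sham 1, 781 and 510), Rpl7 (TON 4, 66.9) and Rpl3 (sham 1, 251). Of the Müller glia and gliosis genes, 8 of 17 held 10 members among 43 regions (23.3%), 4 in TON and 6 in sham lists, led by Apoe, Clu (clusterin; sham 3, 277) and Car2 (a carbonic anhydrase; TON 4, 96.1). In the microglia and complement list the single member was in C3 (sham 1, 63.5). Of the splicing factors, 15 of 25 held 19 members among 90 regions (21.1%), 8 in TON and 11 in sham lists, with Srrm2, Sf3b1 (sham 1, 101 and 95.1) and Prpf8 (sham 1, 71.5) the most expressed. These counts by list are descriptions without a test.

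The machinery of m6A itself carried one-list regions. Of the m6A writers, erasers and readers, 11 of 17 genes with a region held 20 members among 63 regions (31.7%), 10 in TON and 10 in sham lists. Mettl14, the partner of METTL3 in the writer, held 6 of them among 9 regions: in TON 4 (73.9 and 158), TON 5 (107 and 554), TON 6 (112) and sham 1 (66.4). It also had 2 regions in all 6 lists, and its level was 19.8, 18.1 and 17.0 FPKM in TON 4, 5 and 6 and 18.1, 18.8 and 21.5 FPKM in sham 1, 2 and 3. Alkbh5, an eraser, had its only region in TON 4 (253, 773 bases). Fto, the other eraser, had 2 regions and both were members, in TON 4 (491) and sham 1 (156). Of the remaining genes, Hnrnpa2b1, a nuclear reader, had its only region in TON 6 (267), Wtap, a writer adaptor, 1 in sham 3 (52.7) and Mettl3 1 in sham 1 (51.7). The members of Wtap and Mettl3 were close to the lowest score of all members, 50.0, with false discovery rates of 100% and 47.6%.

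Genes of other ocular and blood cell types held 8 members in 6 genes among 21 regions (38.1%), 2 in TON and 6 in sham lists. Krt5, a keratin of basal epithelium, had its only region in sham 1 (114, 3.90-fold) and stood at 0.62, 4.76 and 0.00 FPKM in TON 4, 5 and 6 and at 64.4, 8.54 and 0.00 FPKM in sham 1, 2 and 3. Krt15 had its only region in sham 1 (71.0) as well, with 11.9 FPKM there and 0.00 to 5.34 FPKM in the other libraries. Of the genes with a member of sham 1, 11 of 1376 (0.799%) had an input level in sham 1 at least 2 times that of every other library, beside 0.250% of all genes with a region. No other list had such an excess. The same share was 0.346%, 0.00% and 0.153% in TON 4, 5 and 6, beside 0.272%, 0.170% and 0.431% of all genes with a region. It was 0.00% and 0.246% in sham 2 and 3, beside 0.023% and 0.363%. The 6 genes of sham 1 furthest apart, chosen by that ratio with 1 FPKM added to each level, were Krt5, Aqp5, Dsp, Krt13, Calml3 and the lens crystallin Crygc. Krt13, a keratin of mucosal epithelium, stood at 1.899, 1.09 and 0.92 FPKM in TON 4, 5 and 6 and at 23.1, 5.30 and 3.57 FPKM in sham 1, 2 and 3. Their part in the larger number of members of sham 1 was not tested. Rpe65, the retinoid isomerase of the pigment epithelium, had members in TON 6 (106) and sham 3 (61.3), and Cldn5, a tight junction protein of endothelium, 1 in TON 4 (148).

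Over all genes with a member, those just named included, the own library was on median no higher than the others. Among genes of at least 1 FPKM, the median log2 ratio of the own library to the mean of the other 5 was -0.04, -0.04 and -0.03 for members of TON 4, 5 and 6 and -0.04, -0.04 and -0.05 for members of sham 1, 2 and 3. The medians of the same libraries at the genes with members of each other list averaged 0.02, 0.01 and 0.01 in TON 4, 5 and 6 and -0.03, -0.01 and -0.03 in sham 1, 2 and 3, which was higher in all 6 cases. The own library was the lowest of the 6 for 1504 of 6881 members (21.9%) and the highest for 918 (13.3%), where an even split without ties would give 16.7% each. A library tied at the lowest level counted as lowest, while a level of 0 never counted as highest. The 85 members whose gene was at 0 in all 6 inputs thus all counted as lowest, so these shares cannot be compared directly. These values are a description without a test, because the input reads also entered the peak calls that chose the members.

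Expression of the genes with members differed little between TON and sham. Of 15900 genes tested (limma on log2(FPKM + 1), adjusted p under 0.05), 6 (0.0377%) were higher and 1 (0.00629%) was lower in TON. Among the 4533 tested genes with a member, 1 was higher and 0 were lower, a share near that of all genes. At an unadjusted p under 0.05, 319 (7.04%) were higher and 190 (4.19%) lower, beside 7.06% and 3.29% of all genes tested. The median log2 change was 0.03 over genes with a member and 0.06 over all genes. With scaled fragments in place of FPKM, 28 of 16553 genes (0.169%) were higher and 10 (0.0604%) lower in TON. Of the 4553 tested genes with a member, 9 (0.198%) were then higher, namely Serpina3n, Fosl1, Slc13a5, Lmna, Adamts1, Htra1, Camk1d, Rps6ka2 and Vat1l, and 2 (0.0439%) lower, namely Stip1 and Hsp90b1, all of them but Serpina3n chosen after their values were seen.

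The gene that passed was Serpina3n, a secreted serine protease inhibitor induced in reactive astrocytes of mice. Its level was 24.2, 26.9 and 21.7 FPKM in TON 4, 5 and 6 and 2.60, 1.79 and 3.83 FPKM in sham 1, 2 and 3, and the groups did not overlap. The log2 change on the log2(FPKM + 1) scale was 2.79 ± 0.24 (SE, n = 3 each, limma adjusted p = 0.010). Its 3 regions were held by TON lists only: 654 bases in TON 4, 5 and 6 (scores 2714, 305 and 3100), 85 bases in TON 4 and 6 (329 and 187) and the member of 274 bases at chr6:137287754-137288027 in TON 4 alone (67.1, 4.60-fold). The call was lost without TON 4, TON 5, TON 6 or sham 1 (adjusted p = 0.082, 0.064, 0.056 and 0.051) and without TON 5 and sham 1 together (adjusted p = 0.19), with log2 changes of 2.59 to 2.99 when any 1 library was left out.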

How the data were processed

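Per the labels and the study's methods, the authors trimmed reads with cutadapt 1.9.3, aligned them with HISAT2 2.0.4, ran MACS on every sample by itself to call peaks, and estimated input expression with Cufflinks and Cuffdiff. The deposited peak lists hold, for each peak, a length in bases, a score, a fold (ratio) over input and the percent false discovery. The deposited expression table holds FPKM per gene and input library, and a signal of fragments scaled by the authors, from which depth was estimated (98.3% to 98.6% of low values were whole multiples of 1 value, within 0.1). No source names the build of these peak positions, so no sequence was read and exons were not assigned. Positions are 1-based.

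Peaks were merged in Python 3.11.15 (pandas 2.3.3, NumPy 2.4.6, SciPy 1.17.1), and lists were compared by exact permutation tests. Expression was tested in R 4.3.3 with limma 3.58.1 (trend, Benjamini-Hochberg) on log2(FPKM + 1), keeping genes whose TON or sham mean reached 0.1 FPKM. Both steps were tested on simulated data. The planned tests on the number and share of one-list regions are not used, because the rule made those values, and that on input RNA is given as a description, because the inputs entered the peak calls. Alternatives were another overlap, gap or score limit, equal list sizes, other pseudocounts and filters, median centring, and leaving out samples.

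The members, gene lists and tests were chosen with earlier results of these data known. Genes were named by a rule: in each list the 3 highest scores, the most expressed genes and the gene with the most members, genes passing limma, and up to 3 genes of each of 14 gene lists by FPKM. Genes named outside it were chosen after their values were seen. Some genes that the rule names are not reported here. The p-values of limma measure the spread between pools of 4 rats. Those of the permutation tests compare lists, whose values depend on each other through the rule.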

Additional observations from a re-analysis of the deposited data

How the results depend on the processing

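A minimum overlap of 100 bases gave 15875 one-list regions, since 10165 of the peaks (12.7%) are shorter than that; it also put 47.0% of members in a gene with a region of all 6 lists, and members 10.8 percentage points lower than shared regions in the last 20% of the gene (-10.8, exact p = 0.03125, the smallest possible). The other planned limits gave 5141 to 6897 one-list regions, and an overlap of 50% of the shorter peak, added after seeing the data, 6949. Leaving out 1 sample moved the difference in number (TON minus sham) between -793 and 289, the higher without TON 6, and the difference in share between -5.64 and 1.82 percentage points, with 0.42 without TON 4. The same step moved the difference in the last 20% of the gene (members minus shared) between -0.98 and 0.011 percentage points, the higher without TON 5, the median log2 ratio of own library to others between -0.044 and -0.031, and the number of genes passing limma between 3 (without sham 1) and 15 (without sham 3). No gene with a member passed without TON 4, TON 5, TON 6 or sham 1. Over genes marked by a single list the log2 ratio was -0.055.

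Added after seeing the data, leaving out TON 4 and TON 6 gave 1.28 percentage points for the last 20% (p = 0.5, exact) and 46.0% of members in a gene with a region of all remaining lists, and leaving out TON 5 and sham 1 gave 40.7%. Scaled fragments in place of FPKM gave 38 genes by limma, 11 of them with a member. No paired analysis was possible because TON and sham samples share no replicate numbers. The depth of the immunoprecipitated libraries is unknown, so a missing peak cannot be read as a missing mark.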
